A study of Mus musculus with 10 samples.

Results

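Chromatin immunoprecipitation followed by sequencing (ChIP-seq) mapped Six2 and β-catenin in nephron progenitors sorted from embryonic mouse kidney, and the peaks around 3 progenitor regulator genes, Osr1, Wt1 and Pax2, are described here. The peaks were chosen by position alone, in windows around genes picked with earlier results of these data known. Every called peak that overlapped a window of 400 kb given for each gene in mm9 was taken, namely chromosome 12 from 9400000 to 9800000 for Osr1, chromosome 2 from 104800000 to 105200000 for Wt1, and chromosome 19 from 44600000 to 45000000 for Pax2. The windows held 39 of the 10348 peaks in the 4 lists. Merging peaks that shared at least 1 bp gave 22 regions, of 7666 in the genome. The Osr1 window held 0 peaks, the Wt1 window 16 peaks in 9 regions and the Pax2 window 23 peaks in 13 regions.

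All cells came from E16.5 embryonic kidneys of mice of mixed background carrying the BAC transgene Six2GFPcre, and were sorted by FACS for Six2 expression. Six2 was immunoprecipitated from freshly sorted cells in 2 libraries. β-catenin was immunoprecipitated, also in 2 libraries, from sorted cells that were pelleted and kept for 24 h in serum-containing medium with 4 µM BIO in DMSO. BIO inhibits the kinase GSK3, which otherwise marks β-catenin for degradation. Antibody and cell state therefore changed together and cannot be told apart. The 6 input and rabbit IgG mock samples were not analysed here, so binding was not told apart from sites at which any ChIP library would show signal. Whether the libraries of an antibody came from separate sorts or cultures is not stated in the labels. The peak lists carry no expression values, so the sorted cell type was not checked against its markers.

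Nephron progenitors of the cap mesenchyme either renew themselves or turn into the epithelium of the nephron. Six2, a homeodomain transcription factor, keeps them in the progenitor state, while β-catenin carries the canonical Wnt signal that starts their differentiation and reaches DNA through TCF/LEF factors. Osr1 encodes an odd-skipped zinc finger protein that marks the earliest kidney mesenchyme. Wt1 encodes the zinc finger protein of Wilms' tumour, which the mesenchyme needs for survival and which later marks podocytes. Pax2 encodes a paired-box factor needed in both the ureteric bud and the mesenchyme.

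The lists gave a position and a place in the list for each peak, and no read count, so the depth behind each peak is unknown. Six2 replicate 1 had 5645 peaks, Six2 replicate 2 had 1622, β-catenin replicate 1 had 1873 and β-catenin replicate 2 had 1208. Row number was read as rank, since the lists were not sorted by position and leading rows were the ones most often called again. In Six2 replicate 1, 76.5% of the first decile (10% of the list) was overlapped by replicate 2, against 4.79% of the last decile. The shares were 85.1% and 4.81% in β-catenin replicate 1, and 90.9% and 20.8% in β-catenin replicate 2. In Six2 replicate 2 they fell less, from 98.2% to 74.7%, so its row numbers separate peaks less by this measure. A row is also given as a percent of its list, where a low value means a leading peak. Distances from the start sites are not given, because gene positions of mm9 were not used here and positions were not converted from another build. Positions are given instead from the midpoint of each window, and no region was assigned to a gene. By gene order in RefSeq (GRCm38), the 3 nearest protein-coding genes on the sides of Wt1 are Prrg4, Ccdc73 and Eif3m, and Them7, Rcn1 and Pax6. Those of Pax2 are Sec31b, Ndufb8 and Hif1an, and Slf2, Sema4g and Mrpl43, and those of Osr1 are Matn3, Wdr35 and Ttc32, and Nt5c1b, Rdh14 and Kcns3.

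The 3 windows differed in how many peaks they held and in which antibody supplied them. The Wt1 window had 9 peaks of Six2 replicate 1, 4 of Six2 replicate 2, 3 of β-catenin replicate 1 and 0 of β-catenin replicate 2. The Pax2 window had 8, 1, 7 and 7 peaks in the same order. Six2 replicate 1 thus had nearly as many peaks at Pax2 as at Wt1. Six2 sites called in both Six2 libraries lay mostly at Wt1, with 4 (44.4% of its regions) against 1 at Pax2 (7.69%). β-catenin sites called in both β-catenin libraries lay at Pax2 alone among the windows, with 4 (30.8% of its regions) against 0 at Wt1. Over the whole genome, 17.6% of merged regions were called in both Six2 libraries and 7.24% in both β-catenin libraries.

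**Figure D1:**
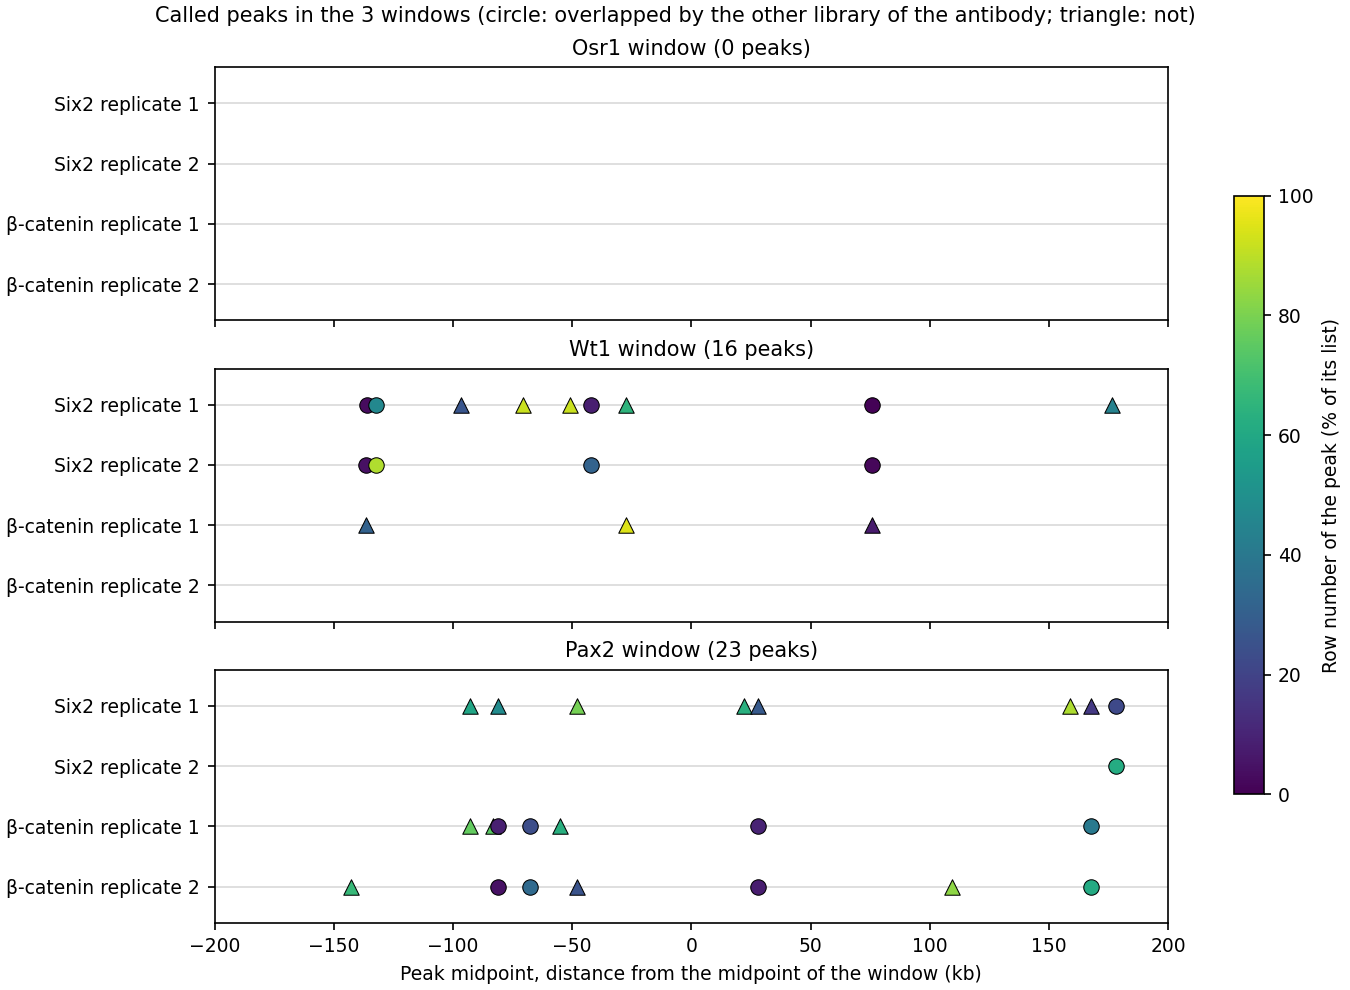
Midpoint of each called peak, in kb from the midpoint of its window, in rows for the 4 libraries and panels for the 3 windows. Colour gives the row number as a percent of the list, circles are peaks overlapped by the other library of the same antibody and triangles are peaks that were not. The Osr1 panel is empty, the Wt1 panel has 16 peaks and none of β-catenin replicate 2, and the Pax2 panel has 23 peaks with 1 of Six2 replicate 2.

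Of the peaks that each library placed in the Wt1 and Pax2 windows together, the share at Wt1 was 52.9% in Six2 replicate 1, 80.0% in Six2 replicate 2, 30.0% in β-catenin replicate 1 and 0% in β-catenin replicate 2. Both Six2 libraries lay above both β-catenin libraries. The means were 66.5% ± 19.1 (SD, n = 2) for Six2 and 15.0% ± 21.2 (SD, n = 2) for β-catenin, a difference of 51.5 percentage points. An exact two-sided permutation test over libraries gave p = 0.333, the smallest that 2 libraries against 2 allow, so no difference between them could pass 0.05 and the test says nothing about this one. The share was compared after the counts were seen.

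The Osr1 window was the one with no called site. None of the 4 libraries had a peak between bases 9282887 and 9905282 of chromosome 12, a stretch of 622.4 kb that includes the whole window. Empty stretches of this kind were common. Of the 7646 gaps between neighbouring regions of a chromosome, 1012 (13.2%) were at least as long, and the median gap was 127.3 kb. Cutting the genome into tiles of 400 kb gave 6559 tiles, of which 3173 (48.4%) held no peak of any library.

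Of the sites called in at least 2 libraries, the nearest to the Osr1 window was a β-catenin site. It lay 117 kb before the window, as a peak of row 33 in replicate 1 (first 1.76% of the list, 9282689 to 9282780) and of row 67 in replicate 2 (5.55%, 9282731 to 9282887). These are leading rows of both lists, and Six2 had no peak there. The peak nearest to the window was of Six2 replicate 1 alone, 105 kb after it and late in the list at row 4413 (78.2%). On the other side the nearest Six2 replicate 1 peak was 341 kb away, of row 3614. Six2 replicate 2 had its nearest peaks at 476 kb before and 438 kb after the window, of rows 213 and 187. These flanking peaks fall outside the window and were named after their values were seen.

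Wt1 had the leading Six2 sites of the 3 windows. Regions are numbered along the chromosome within each window. Wt1 region 8, at chromosome 2, 105075571 to 105075763, was row 29 of 5645 in Six2 replicate 1 and row 28 of 1622 in Six2 replicate 2. β-catenin replicate 1 called it as row 139 of 1873 and β-catenin replicate 2 did not. Ordered by the mean row percent of the Six2 libraries, it took place 13 of the 1348 sites that both Six2 libraries called. The 3 peaks shared 105 bp and their midpoints lay at most 27.5 bp apart. The region was 75.7 kb after the midpoint of the window, and 102.9 kb of sequence without a peak separated it from the region before it.

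Wt1 region 1, at 104863469 to 104864343, was the other Wt1 site in the leading rows of both Six2 lists. It was row 167 in Six2 replicate 1 (2.96% of the list) and row 64 in Six2 replicate 2 (3.95%), and took place 57 of the 1348 sites. β-catenin replicate 1 called it lower in its list, as row 580 (31.0%). The peak of Six2 replicate 1 was 831 bp wide, wider than nearly all peaks of that list (percentile 99.9), whereas the peaks of Six2 replicate 2 and β-catenin replicate 1 were 209 and 106 bp wide and overlapped its first part. The midpoints of the peaks were up to 355 bp apart, the widest spread among the 12 regions of these windows called in at least 2 libraries.

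A pair of Wt1 regions carried Six2 in both libraries and no β-catenin peak. Wt1 region 6, at 104957908 to 104958174, was row 473 in Six2 replicate 1 (8.38%) and row 513 in replicate 2 (31.6%), and took place 374. Wt1 region 2, at 104867598 to 104867757, began 3.25 kb after region 1 and was row 2638 (46.7%) and row 1430 (88.2%), at place 1222. Its row was late in the replicate 2 list and near the middle of the replicate 1 list. Wt1 region 7, at 104972542 to 104972716, had late rows in each of its libraries, 3660 in Six2 replicate 1 (64.8%) and 1775 in β-catenin replicate 1 (94.8%).

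The remaining 4 Wt1 regions were called by Six2 replicate 1 alone, between 26.4% and 92.2% of its list. The nearest peak of Six2 replicate 2 was 8.65 to 100.8 kb away from them. Of the 9 Wt1 peaks of Six2 replicate 1, 4 were called again in replicate 2, where 24% of the whole list was. Rank bears on that share, so each peak was also set beside the decile of the list it came from. At the shares of their own deciles, 3.19 of the 9 would have been called again. All 4 peaks of Six2 replicate 2 were called in replicate 1, against 83.1% of that list.

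β-catenin at Wt1 rested on 1 library. The 3 peaks of β-catenin replicate 1, of rows 139, 580 and 1775, all lay on a Six2 peak, where 36.6% of the whole list did. At the shares of their deciles 1.20 of the 3 would have. None of the 3 was called by β-catenin replicate 2, against 29.5% of the list and 1.19 of 3 at the shares of their deciles. The peak at region 8 came from the first decile of that list, of which 85.1% was called again. The nearest β-catenin replicate 2 peaks to the window were 1511 kb before it and 162 kb after it.

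**Figure D2:**
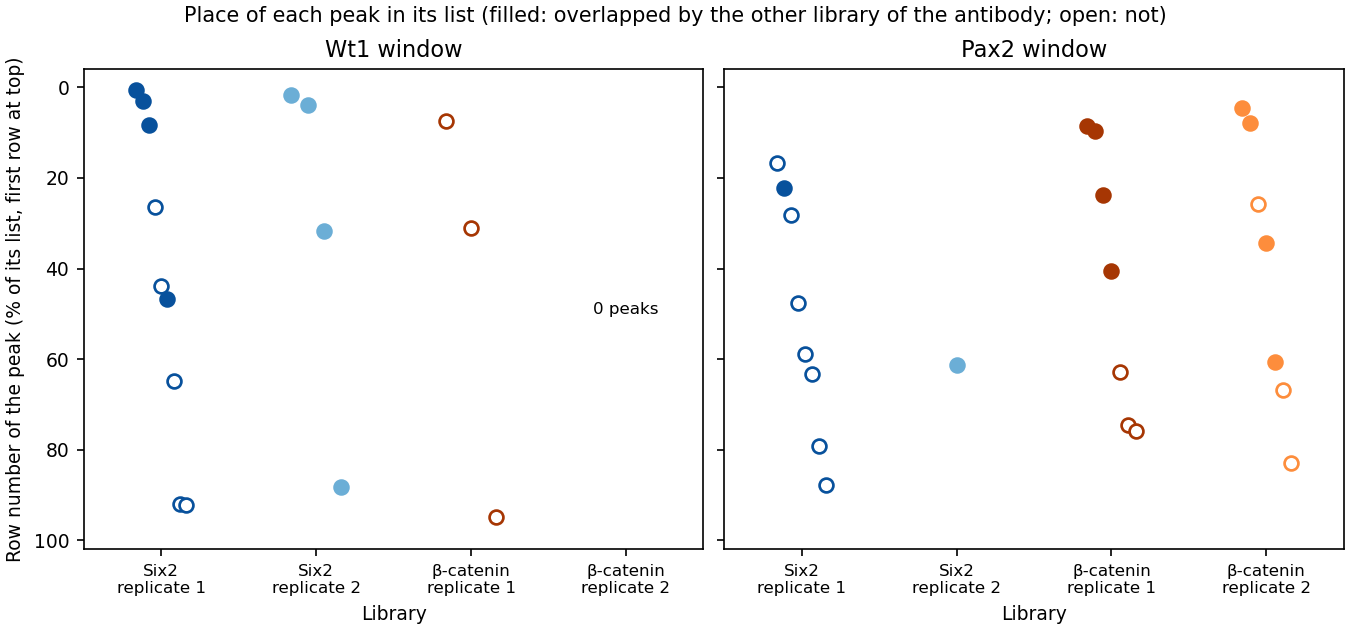
Row number of each peak as a percent of its list, with the first row at the top, by library in the Wt1 and Pax2 windows. Filled points were overlapped by the other library of the antibody and open points were not. At Wt1 the Six2 libraries have 5 peaks in the first 10% of their lists and the β-catenin libraries 1, and at Pax2 the β-catenin libraries have 4 and the Six2 libraries 0.

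Pax2 had the reproducible β-catenin sites. Pax2 region 4, at chromosome 19, 44719008 to 44719150, was row 161 of 1873 in β-catenin replicate 1 and row 56 of 1208 in replicate 2. Pax2 region 9, at 44828042 to 44828230, was row 179 and row 96. They took places 67 and 90 of the 551 sites that both β-catenin libraries called. Both were also called by Six2 replicate 1, at row 2693 (47.7%) for region 4 and row 1587 (28.1%) for region 9, and neither by Six2 replicate 2. Each was therefore near the front of the β-catenin lists and further back in the Six2 list. The peaks of region 4 had midpoints within 18 bp of each other and those of region 9 within 50.5 bp.

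The other Pax2 sites called in both β-catenin libraries had lower places. Pax2 region 5, at 44732353 to 44732503, was row 444 (23.7%) and row 415 (34.4%), at place 267, and had no Six2 peak. Pax2 region 12, at 44967572 to 44967844, was row 759 (40.5%) and row 733 (60.7%), at place 416. Six2 replicate 1 called region 12 as row 940 (16.7%), which was its leading peak in the Pax2 window.

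Six2 was called in both of its libraries at 1 Pax2 site. This was Pax2 region 13, at 44978155 to 44978284, with row 1252 in replicate 1 (22.2%) and row 995 in replicate 2 (61.3%), and with no β-catenin peak. It took place 787 of 1348, behind 3 of the 4 Wt1 sites. Its midpoints in the libraries were 1 bp apart. It lay 10.3 kb after region 12.

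A further pair of Pax2 regions combined 1 library of each antibody. Pax2 region 7, at 44751861 to 44752029, was row 310 in β-catenin replicate 2 (25.7%) and row 4463 in Six2 replicate 1 (79.1%). Pax2 region 2, at 44706987 to 44707241, was row 1422 in β-catenin replicate 1 (75.9%) and row 3324 in Six2 replicate 1 (58.9%). The remaining 6 Pax2 regions had a single library each, 2 from Six2 replicate 1 and 2 from each β-catenin library, at 62.9% to 87.7% of their lists. The nearest peak of the other library of the antibody was 1.99 to 155.9 kb away from them.

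**Figure D3:**
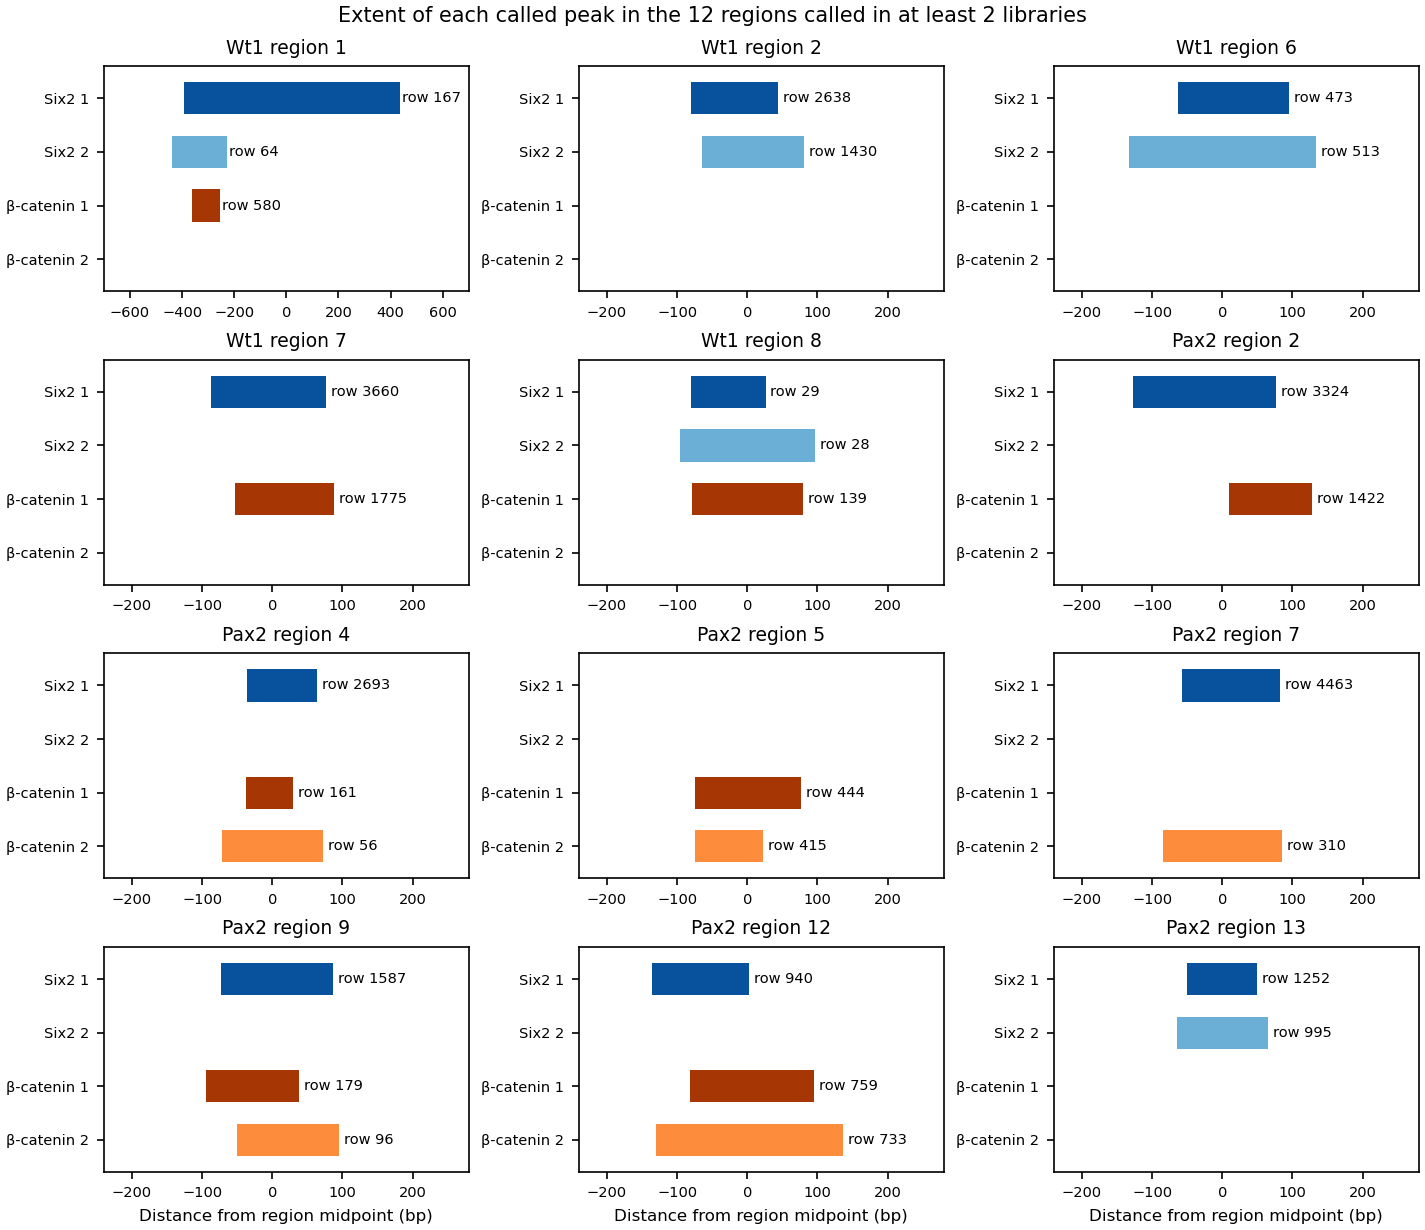
Extent of each called peak, in bp from the midpoint of its region, in the 12 regions called in at least 2 libraries, with the row number beside each bar and rows named by antibody and replicate. The axis of Wt1 region 1 is wider than the others. The peaks of a region share 65 to 158 bp, and the peak of Six2 replicate 1 at Wt1 region 1 is 831 bp wide.

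At Pax2, β-catenin peaks were called again in 4 of 7 cases in each library, Six2 replicate 1 peaks in 1 of 8 and the single Six2 replicate 2 peak in 1 of 1. Of the 7 peaks of β-catenin replicate 1, 4 were called in replicate 2, against 29.5% of the list and 2.71 of 7 at the shares of their deciles. Of the 7 of β-catenin replicate 2, 4 were called in replicate 1, against 45.6% of the list and 3.82 of 7. Of the 8 peaks of Six2 replicate 1, 1 was called in replicate 2, against 24% of the list and 1.71 of 8. The 1 peak of Six2 replicate 2 was called in replicate 1, against 83.1% of the list and 0.759 of 1. These counts are small and were not tested.

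Peaks of the antibodies coincided in 3 of the 9 Wt1 regions and 5 of the 13 Pax2 regions, or 36.4% of the 22 regions, where the genome had 9.99%. Of the 8 Six2 replicate 1 peaks at Pax2, 5 lay on a β-catenin peak, against 12.9% of that list and 0.868 of 8 at the shares of their deciles. At Wt1, 3 of its 9 peaks did, against 1.66 of 9. Six2 replicate 2 had 2 of its 4 Wt1 peaks and 0 of its 1 Pax2 peak on a β-catenin peak, against 23.6% of its list. At the shares of their deciles, 1.49 of the 4 and 0.16 of the 1 would have been. β-catenin replicates 1 and 2 each had 4 of 7 Pax2 peaks on a Six2 peak, against 36.6% and 27.9% of their lists, and 2.78 and 2.29 of 7 at the shares of their deciles. All 8 coincident regions held a peak of Six2 replicate 1, and without that library 2 remained, Wt1 regions 1 and 8. Without β-catenin replicate 1, 4 remained. No region of the windows was called in all 4 libraries. In the genome 1.64% of regions were, a share too low for 0 of 22 regions to stand out.

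Few stretches of the genome held as many regions as the Wt1 and Pax2 windows. The median tile of 400 kb held 1 region. At least 9 regions, as at Wt1, were found in 28 of the 6559 tiles (0.427%), and at least 13, as at Pax2, in 4 tiles (0.061%). At least 4 sites of both Six2 libraries, as at Wt1, were found in 19 tiles (0.29%), and at least 4 sites of both β-catenin libraries, as at Pax2, in 3 tiles (0.0457%). With tiles shifted by 200 kb, 7 of 6545 tiles (0.107%) held as many of these β-catenin sites, and 13 tiles (0.199%) as many of the Six2 sites. At least 1 site of both Six2 libraries, as at Pax2, was found in 15.9% of tiles. These shares are a background for the counts and not a test. The windows were chosen around genes of known interest, with earlier results of these data known. Tiles also include sequence to which reads may not map.

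**Figure D4:**
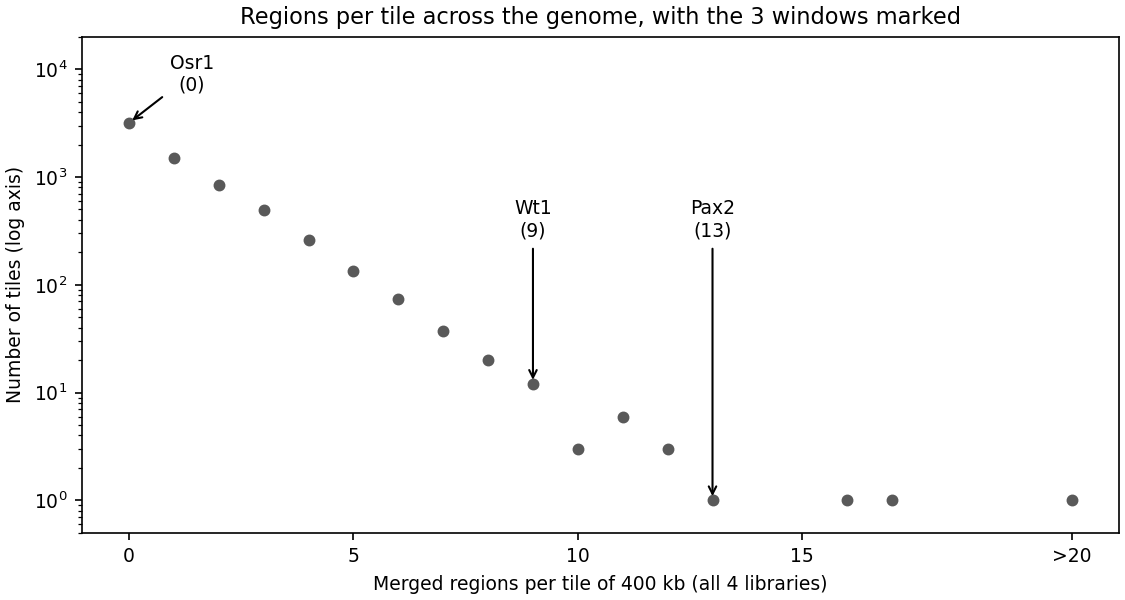
Number of tiles of 400 kb (log axis) by the number of merged regions of all 4 libraries that they hold, with the counts of the 3 windows marked. The 0 regions of the Osr1 window match 3173 of 6559 tiles, and the 9 and 13 regions of the Wt1 and Pax2 windows lie in the sparse upper tail. 1 tile with more than 20 regions is drawn at the right end.

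Within the Pax2 window, 6 of the 13 regions lay in 45.0 kb, from 44706987 to 44752029, and every one of the 6 had a β-catenin peak. In this stretch, regions 2, 4 and 7 also had a peak of Six2 replicate 1, and regions 4 and 5 had peaks of both β-catenin libraries. Stretches of at most 50 kb with as many regions began at 156 of the 7666 regions of the genome (2.03%). The Wt1 regions were more spread. The densest such stretch there held 4 regions in 43.4 kb, from 104929280 to 104972716, as 325 regions of the genome (4.24%) had or exceeded. Both stretches were picked after their values were seen. A crowded place is counted once for each region that begins such a stretch, so the percentages are not shares of separate places. The densest 50 kb of the genome held 40 regions, and 1 tile of 400 kb held 146. How many of the 156 and 325 starts fell in such crowded places was not counted.

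Regions called in at least 2 libraries made up 5 of 9 at Wt1 and 7 of 13 at Pax2, where 26.7% of all regions were. By role, the 5 Wt1 regions comprised 2 with Six2 alone, 2 with both Six2 libraries and β-catenin replicate 1, and 1 with a single library of each antibody. The 7 Pax2 regions comprised 3 with both β-catenin libraries and Six2 replicate 1, 2 with a single library of each antibody, 1 with β-catenin alone and 1 with Six2 alone. At Wt1, 6 of 9 regions (66.7%) had Six2 alone, close to the 67.1% of the genome, and each region with β-catenin also had Six2. At Pax2, 5 of 13 regions had β-catenin alone and 3 had Six2 alone, against 22.9% and 67.1% of the genome.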

How the data were processed

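ChIP-seq peak lists of 4 libraries, 2 for Six2 and 2 for β-catenin, were used. The deposited files hold another kind of value than counts: the start and end of each peak, with no score or p-value. CASAVA 1.6 and the build mm9 come from the submitters' processing notes. Which caller, threshold and control made the lists is not given in the sources used here. There is 1 list per library. Coordinates were read as BED and printed 1-based.

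Peaks sharing at least 1 bp were linked and merged. Overlap was tested on simulated lists. Every region of the windows is accounted for. Those called in at least 2 libraries, or in the first 10% of a list, are named. Members and lists were chosen with earlier results of these data known. Replicate numbers follow accession order and pair nothing. Shares over a list or decile, and tiles starting at each chromosome's first base and ending at its last peak, serve as background. Distances to start sites, other progenitor genes, motifs and peak sequences need an mm9 reference and were not analysed here. Alternatives were the central 50% of each window, the first 50% of each list, links by midpoints within 500 bp or by 50% reciprocal overlap, shifted tiles and leaving out each library. Python 3.11.15, numpy 2.4.6, scipy 1.17.1 and matplotlib 3.10.9 were used.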

Additional observations from a re-analysis of the deposited data

How the results depend on the processing

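The 3 windows held 5 Six2 sites and 4 β-catenin sites called in both libraries, 8 regions with both antibodies and 22 regions. With the first 50% of each list there were 3 Six2 sites, 3 β-catenin sites, 5 regions with both antibodies and 12 regions. With the central 50% of each window there were 2 Six2 sites, 3 β-catenin sites, 6 regions with both antibodies and 14 regions. Fewer peaks and less sequence enter these alternatives by construction. Leaving out 1 library gave 2 to 8 regions with both antibodies and 16 to 22 regions. The lowest count with both antibodies was without Six2 replicate 1, and without β-catenin replicate 1 it was 4. A reciprocal overlap of 50% separated the Six2 peaks of Wt1 region 1 and the β-catenin peaks of Pax2 region 4, leaving 4 and 3 sites. That setting gave 6 regions with both antibodies and 25 regions. Counts with midpoints within 500 bp were the same as with 1 bp, and shifted tiles gave 0.458% for the regions of Wt1, 0.0917% for those of Pax2 and 0.107% for the β-catenin sites of Pax2 called in both libraries. Sites called in both libraries need both, so they have no value with a library left out. No paired analysis was possible because the labels carry no replicate numbers. Depth is unknown, and a site missing from a list may lie below that list's threshold.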
